A study of Homo sapiens with 12 samples.

Results

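The Krüppel-like factors (KLFs) described here are 10 genes, KLF2, KLF3, KLF4, KLF5, KLF6, KLF7, KLF9, KLF10, KLF11 and KLF13, taken by symbol from a table of 19973 genes. RNA was sequenced from 2 human non-small cell lung cancer (NSCLC) cell lines, H460 (from a large cell carcinoma) and A549 (from a lung adenocarcinoma), both labelled wild type. The paper states that both lines carry homozygous inactivating mutations of KEAP1, so the label does not mean lines free of mutations. Each line was left non-treated, called control here, or was treated with isovalerylspiramycin I (ISP-I), a macrolide, at 10 µM for 48 h. There were 3 libraries in each of the 4 groups and 12 libraries in all. The controls for RNA are given as non-treated cells, without a statement that they received the solvent of the drug. All cells of a group are of 1 established line, so the groups model NSCLC through these 2 lines only.

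KLFs are transcription factors with zinc fingers at the C-terminal end that bind CACCC boxes and related GC-rich sites, which they share with the SP family. The N-terminal parts differ, so some members (KLF2, KLF4, KLF5, KLF6 and KLF7) are known mainly or in part as activators, while KLF3 recruits CtBP and KLF9, KLF10, KLF11 and KLF13 recruit SIN3A to repress genes. Many KLF genes are early response genes whose mRNA is short-lived and rises after growth factors, stress or TGFβ, and several members bind the promoters of other members.

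In hg38, KLF2 (ENSG00000127528) is at chr19:16324826-16328685, plus strand. KLF3 (ENSG00000109787) is at chr4:38664197-38701517, plus strand. KLF4 (ENSG00000136826) is at chr9:107484852-107490482, minus strand. KLF5 (ENSG00000102554) is at chr13:73054976-73077541, plus strand. KLF6 (ENSG00000067082) is at chr10:3775996-3785281, minus strand. KLF7 (ENSG00000118263) is at chr2:207074137-207167267, minus strand. KLF9 (ENSG00000119138) is at chr9:70384597-70414624, minus strand. KLF11 (ENSG00000172059) is at chr2:10042849-10054836, plus strand. KLF13 (ENSG00000169926) is at chr15:31326835-31435665, plus strand. Exons of KLF3, KLF4, KLF7 and KLF11 overlap a long non-coding RNA on the opposite strand in GENCODE v44 (KLF3-AS1 for KLF3, MYOSLID and ENSG00000224342 for KLF7, ENSG00000289987 for KLF4 and ENSG00000271787 for KLF11). The strand setting of the counting is not stated, so reads of these 4 genes and of their partners could not be told apart.

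Promoter windows of 300 bases, 250 before and 50 after a gene's start, were found for 8 of the 10 genes in RefSeq (GRCh38.p14), 13 windows in all. KLF3 and KLF10 had no window. The median GC content was 70.0% over these windows, from 32.67% to 80.67%, against 58.67% over all 35116 windows. The windows of KLF5 and KLF6, whose mRNA rose more than 10-fold in H460, and of KLF2, whose mRNA was lower after ISP-I, are shown 5′ to 3′ on the gene's strand. The capitals mark CACCC boxes, which KLF factors are known to bind, and the GC box GGGCGG, known from SP factors. Both were searched on either strand, so a match on the other strand stands as its complement (GGGTG for the former), and adjoining matches run together.
KLF5, chr13:73054726-73055025, plus strand, start 1: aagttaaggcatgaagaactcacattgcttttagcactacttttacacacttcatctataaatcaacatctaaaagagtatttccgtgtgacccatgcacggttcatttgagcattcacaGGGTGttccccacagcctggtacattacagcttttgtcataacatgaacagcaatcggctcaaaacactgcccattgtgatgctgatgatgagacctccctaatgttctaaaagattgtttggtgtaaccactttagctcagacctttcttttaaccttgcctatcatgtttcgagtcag
KLF5, chr13:73058755-73059054, plus strand, start 2: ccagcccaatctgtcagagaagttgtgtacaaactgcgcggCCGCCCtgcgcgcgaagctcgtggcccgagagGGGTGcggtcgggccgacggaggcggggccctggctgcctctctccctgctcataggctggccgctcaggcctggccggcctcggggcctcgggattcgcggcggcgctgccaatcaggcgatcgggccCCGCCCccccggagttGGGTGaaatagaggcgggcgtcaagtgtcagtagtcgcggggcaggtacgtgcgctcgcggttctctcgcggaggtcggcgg
KLF6, chr10:3785160-3785459, minus strand: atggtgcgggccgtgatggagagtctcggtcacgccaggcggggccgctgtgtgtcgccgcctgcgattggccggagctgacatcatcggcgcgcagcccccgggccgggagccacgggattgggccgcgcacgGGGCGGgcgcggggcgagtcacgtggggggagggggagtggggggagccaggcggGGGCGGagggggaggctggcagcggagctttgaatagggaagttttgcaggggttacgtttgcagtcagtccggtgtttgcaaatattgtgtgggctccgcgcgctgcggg
KLF2, chr19:16324576-16324875, plus strand: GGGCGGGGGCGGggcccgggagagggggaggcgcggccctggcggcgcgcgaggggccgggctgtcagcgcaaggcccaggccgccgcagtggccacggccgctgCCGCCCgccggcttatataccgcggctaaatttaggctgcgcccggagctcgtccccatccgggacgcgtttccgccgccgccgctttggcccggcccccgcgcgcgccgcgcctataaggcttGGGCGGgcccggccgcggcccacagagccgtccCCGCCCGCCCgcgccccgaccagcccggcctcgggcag

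The KLF2 window held 6 matches to GGGCGG and 0 to CACCC, with a GC content of 80.67%. The KLF6 window held 2 matches to GGGCGG and 0 to CACCC. The first KLF5 window held 1 CACCC in a sequence of 40.67% GC, and the second held 2 matches to each of the motifs in 71.33% GC. Over both strands, CACCC was in 7 of the 13 windows of the 8 genes and in 59.867% of all windows, and GGGCGG was in 8 of 13 and in 44.954% of all. The AP-1 site TGACTCA (in 4.949% of all windows), the forkhead site GTAAACA (3.423%) and the MEF2-type site CTATTTA (2.714%) were in none of the 13. The cAMP response element TGACGTCA, in 1.848% of all windows, was in 1 of the 13, the second window of KLF11 (chr2:10043971-10044270). These matches are a description of letters in a window and not of binding.

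Between 14225849 and 17874422 reads on genes were recovered per library. The keratins KRT8 (168.04 to 748.26 FPKM) and KRT18 (66.9 to 418.4) marked every library as epithelial, while EPCAM was at most 2.08 FPKM and had a mean of 0.0473 in control H460. FPKM is a read count scaled by gene length and by the total of reads. Of the markers of other cell types, PECAM1, CDH5, PTPRC and COL1A2 were at or under 0.145 FPKM in every library, and COL1A1 was between 0.621 and 1.30. Within a group the libraries correlated at r = 0.982 to 0.998 over genes, and H460 ISP-I library 3 and A549 control library 3 stood farthest from the others of their groups. Mitochondrially encoded genes took 4.51% to 4.82% of reads in control H460 and 2.43% to 2.79% in ISP-I-treated H460, and 3.77% to 4.12% in control and 3.16% to 3.34% in ISP-I-treated A549, lower after treatment in both lines without overlap, and the part of this shift in the results was not tested. The methods name 3 replicates per group and, for the study's means in general, independent experiments, without tying the libraries of a group to separate cultures, so p-values measure the spread between these libraries, which may be technical. RNA was measured in bulk, so fewer cells expressing a gene and less of its RNA per cell cannot be told apart.

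ISP-I treatment raised most of the KLF genes in H460 cells. Of the 10 genes, 7 rose more than 2-fold, and KLF10, KLF6 and KLF5 rose more than 10-fold. KLF2 was lower, and KLF9 and KLF13 did not pass the test. Calls needed more than a 2-fold change on the log2(FPKM + 1) scale and an adjusted p under 0.05 (limma with Benjamini-Hochberg adjustment over the 13423 genes tested). By this rule 7 of the 10 KLF genes were higher and none was lower, where 10.5% of all genes tested were called higher and 15.2% lower. At any fold, 7 passed the adjusted p as higher and 1 as lower, where 27.6% and 41.5% of all genes did. The median log2 change was 1.14 over the 10 genes and -0.15 over all genes tested. Dividing each library by its median-of-ratios factor moved the latter median by 0.16, to 0.02, and left 7 KLF genes called.

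**Figure D1:**
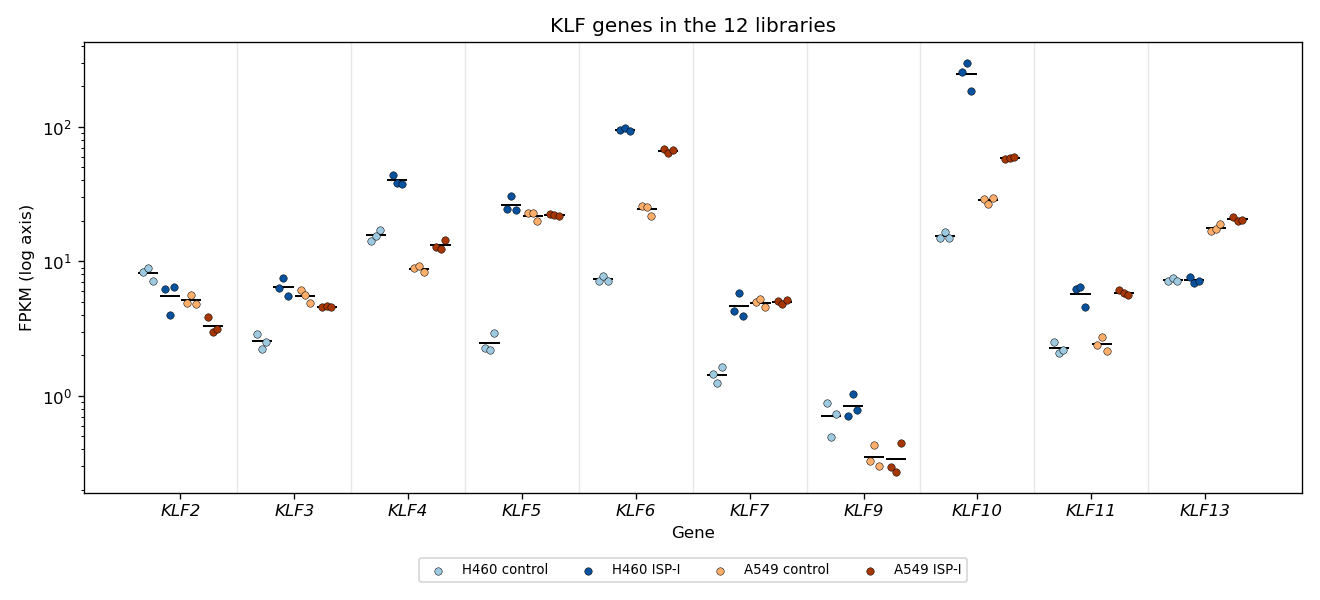
FPKM (log axis) of each of the 10 KLF genes in the 12 libraries, with a point per library coloured by group and a bar at the group mean (n = 3). KLF10 and KLF6 in ISP-I-treated H460 lie highest, at 186.2 to 298.9 and 92.3 to 98.3 FPKM, and KLF9 lies lowest in every group.

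Of the members known as activators, KLF6 rose the most. KLF6, an early gene of the response to tissue injury described as a tumour suppressor in several carcinomas, was at 7.11, 7.84 and 7.08 FPKM in the H460 control libraries 1 to 3 and at 94.99, 98.3 and 92.3 FPKM in the ISP-I libraries. Every treated library was far above every control. The means were 7.34 ± 0.429 and 95.2 ± 2.99 FPKM (SD, n = 3), a ratio of 12.96, and the log2 change was 3.53 (SE 0.106, limma adjusted p = 1.46e-07). It was called when any single library was left out, at 3.51 to 3.57.

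KLF5, which promotes proliferation in the basal layers of epithelia, was at 2.27, 2.18 and 2.92 FPKM in control H460 and at 24.4, 30.6 and 24.2 FPKM after ISP-I. The groups did not overlap. The means were 2.46 ± 0.403 and 26.4 ± 3.66 FPKM (SD, n = 3), 10.7-fold apart, with a log2 change of 2.99 (SE 0.140, limma adjusted p = 8.42e-07). KLF4, a factor of epithelial differentiation and of reprogramming to pluripotency, was at 14.1, 15.4 and 17.2 FPKM in the controls and at 44.2, 38.3 and 37.8 FPKM after ISP-I. It was among the most abundant members before treatment and still rose, by 1.31 on the log2 scale (SE 0.124, limma adjusted p = 2.59e-05).

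KLF7, known for its part in axon growth, was at 1.45, 1.24 and 1.64 FPKM in control H460 and at 4.25, 5.82 and 3.92 FPKM after ISP-I. The means were 1.44 ± 0.201 and 4.66 ± 1.02 FPKM (SD, n = 3), and the log2 change was 1.203 (SE 0.146, limma adjusted p = 0.000118). KLF2, a factor of endothelial and lymphocyte quiescence, stood apart from the other activators. It was at 8.31, 8.99 and 7.19 FPKM in the controls and at 6.23, 3.96 and 6.40 FPKM after ISP-I, so the groups did not overlap and the treated libraries were lower. The log2 change was -0.51 (SE 0.173, limma adjusted p = 0.0284), short of 2-fold, and the adjusted p rested on the scaling and on single libraries. The adjusted p was 0.241 at a log2 change of -0.25 after median-of-ratios scaling. It was 0.0608 without ISP-I library 2 (-0.32), 0.0779 without control library 1 (-0.49) and 0.0949 without control library 2 (-0.44).

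The TGFβ-inducible early genes KLF10 and KLF11, both repressors that act through SIN3A, rose by very different amounts. KLF10 (ENSG00000155090, chr8:102648784-102655725, minus strand) was at 14.9, 16.4 and 14.8 FPKM in control H460 and at 254.4, 298.9 and 186.2 FPKM after ISP-I. This was the largest change of the 10 genes, and the 3 treated libraries differed more among themselves than the controls did, with a coefficient of variation of 23.04% against 5.85%. The means were 15.4 ± 0.901 and 246.5 ± 56.8 FPKM (SD, n = 3), a ratio of 16.01, and the log2 change was 3.89 (SE 0.177, limma adjusted p = 7.74e-07). Left out in turn, single libraries moved the log2 change between 3.74 and 4.08, and it stayed called each time.

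KLF11 was at 2.51, 2.08 and 2.19 FPKM in control H460 and at 6.22, 6.50 and 4.55 FPKM after ISP-I. The log2 change was 1.04 (SE 0.142, limma adjusted p = 0.000235), close to the threshold of 1. Without ISP-I library 1 it was 0.99 and without ISP-I library 2 it was 0.96, and the 2-fold call was lost. KLF3, the repressor that recruits CtBP, was at 2.89, 2.24 and 2.50 FPKM in the controls and at 6.31, 7.54 and 5.52 FPKM after ISP-I. Its log2 change of 1.07 (SE 0.137, limma adjusted p = 0.000162) fell to 0.97, under the threshold, without ISP-I library 2. With limma voom on median-of-ratios the log2 changes in H460 were larger, at 1.63 for both KLF3 and KLF11 and at 1.97 for KLF7.

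KLF9 and KLF13, a pair of closely related members, gave overlapping libraries in H460. KLF9, a target of glucocorticoid and thyroid hormone receptors, was the least abundant member at 0.886, 0.496 and 0.739 FPKM in the controls and 0.714, 1.03 and 0.781 FPKM after ISP-I. It had between 22 and 89 reads in a library over the 12, and its log2 change was 0.11 (limma adjusted p = 0.383), and 0.28 under quantile normalization (adjusted p = 0.0328). KLF13, known as an activator of the chemokine gene CCL5 in T cells, was at 7.19, 7.56 and 7.13 FPKM in the controls and 7.70, 6.95 and 7.14 FPKM after ISP-I. Its log2 change was -0.01 (limma adjusted p = 0.963), and the sign turned with the scaling, to 0.25 after median-of-ratios scaling.

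In A549 cells, ISP-I raised KLF6, KLF10 and KLF11 more than 2-fold and KLF4 by less, and KLF2 fell. By the same rule over 13705 genes tested, 3 of the 10 genes were higher and none was lower, where 4.2% of all genes were called higher and 3.51% lower. At any fold, 5 were higher and 1 lower, where 30.5% and 27% of all genes were. The median log2 change was 0.11 over the 10 genes and 0.02 over all genes tested.

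KLF6 had the largest change in A549. It was at 25.9, 25.2 and 21.8 FPKM in the controls and at 68.0, 63.7 and 67.8 FPKM after ISP-I. The means were 24.3 ± 2.20 and 66.5 ± 2.39 FPKM (SD, n = 3), a ratio of 2.73, with a log2 change of 1.42 (SE 0.080, limma adjusted p = 4.32e-06). KLF10 was at 29.0, 26.6 and 29.6 FPKM in the controls and at 58.0, 58.3 and 60.1 FPKM after ISP-I. All treated libraries were about 2 times the controls, with a ratio of means of 2.07 and a log2 change of 1.03 (SE 0.066, limma adjusted p = 8.4e-06). Without control library 2 the log2 change was 0.98, so the 2-fold call was lost while the rise kept its adjusted p.

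KLF11 was at 2.39, 2.75 and 2.14 FPKM in control A549 and at 6.09, 5.79 and 5.66 FPKM after ISP-I. The ratio of means was 2.41, and the log2 change of 1.0022 (SE 0.089, limma adjusted p = 4.17e-05) was only just past the threshold, since the pseudocount of 1 draws the changes of such low genes toward 0. It was 0.99 after median-of-ratios scaling, 0.94 without control library 3, 0.98 without ISP-I library 1 and 0.996 without control library 1. KLF4 was at 8.93, 9.16 and 8.32 FPKM in the controls and at 12.9, 12.3 and 14.5 FPKM after ISP-I, and rose less than 2-fold (log2 change 0.53, SE 0.082, limma adjusted p = 0.000752).

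KLF2 was at 4.94, 5.65 and 4.83 FPKM in control A549 and at 3.87, 3.01 and 3.12 FPKM after ISP-I. It fell by 0.51 on the log2 scale (SE 0.102, limma adjusted p = 0.00321) without overlap of the libraries. KLF13 was at 16.9, 17.3 and 19.0 FPKM in the controls and at 21.5, 20.1 and 20.4 FPKM after ISP-I. Its log2 change was 0.21 (limma adjusted p = 0.0334), and the adjusted p rose to 0.0675 after median-of-ratios scaling and to between 0.07 and 0.122 without control library 1, control library 2 or any ISP-I library.

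The libraries of KLF5, KLF7 and KLF9 overlapped between the groups of A549. KLF5 was at 22.9, 22.9 and 19.9 FPKM in the controls and at 22.5, 22.0 and 21.7 FPKM after ISP-I, with a log2 change of 0.01 (95% interval -0.16 to 0.18, limma adjusted p = 0.908) whose sign turned after median-of-ratios scaling (-0.0051). KLF7 was at 4.96, 5.28 and 4.57 FPKM in the controls and at 5.04, 4.85 and 5.16 FPKM after ISP-I, with a log2 change of 0.02 (95% interval -0.16 to 0.20, limma adjusted p = 0.832). KLF9 was between 0.271 and 0.445 FPKM in the 6 A549 libraries. KLF3 was at 6.07, 5.63 and 4.86 FPKM in the controls and at 4.57, 4.65 and 4.59 FPKM after ISP-I, lower without overlap but with an adjusted p of 0.0679 by limma at a log2 change of -0.21. Without control library 3 the change was -0.29 (adjusted p = 0.00315), and after median-of-ratios scaling it was -0.23 (adjusted p = 0.0419).

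**Figure D2:**
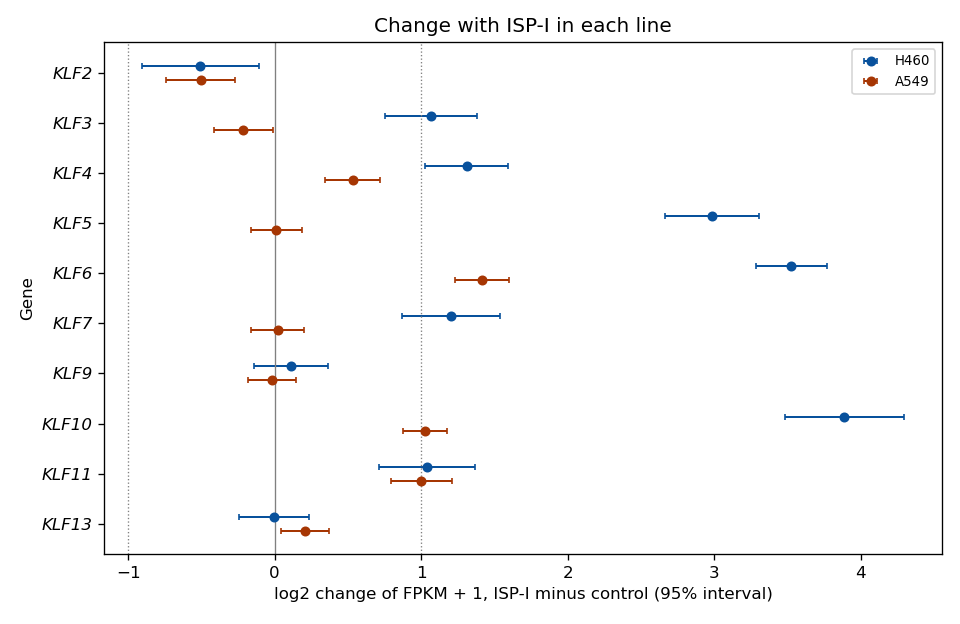
Log2 change of FPKM + 1 with ISP-I in H460 and in A549 for each KLF gene, with points at the limma estimate and bars for the 95% interval (3 against 3 libraries), and dotted lines at a 2-fold change. The intervals of KLF3, KLF4, KLF5, KLF6, KLF7 and KLF10 lie higher in H460 than in A549, while the estimates of KLF2 and KLF11 nearly coincide, at -0.51 in both lines and at 1.0407 and 1.0022, with wider intervals in H460.

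Whether the response differed between the lines was tested by the interaction of line and treatment in all 12 libraries. For 5 of the 10 genes the change in H460 exceeded that in A549 by more than 1 on the log2 scale, and for none was it lower by as much, where 5.93% of the 13953 genes tested were called higher and 10.1% lower. KLF5 differed by 2.97 on the log2 scale (SE 0.157, limma adjusted p = 4.67e-08) and KLF10 by 2.86 (limma adjusted p = 3.23e-07), and their order turned without H460 ISP-I library 3 (3.03 for KLF5 and 3.05 for KLF10). KLF6 differed by 2.11 (limma adjusted p = 7.77e-08). KLF3 differed by 1.28 (limma adjusted p = 3.29e-05) and KLF7 by 1.18 (limma adjusted p = 8.91e-05). KLF4 differed by 0.78 (limma adjusted p = 0.000537), which did not reach 1, although it was past 1 after median-of-ratios scaling (1.08).

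The other 4 genes gave no difference that passed, except KLF9 under quantile normalization. For KLF11 the difference was 0.04 (95% interval -0.32 to 0.40, limma adjusted p = 0.859). For KLF2 it was -0.0008 (95% interval -0.46 to 0.46, limma adjusted p = 0.997), and its sign turned after median-of-ratios scaling (0.26). For KLF9 it was 0.13 (limma adjusted p = 0.425), and 0.36 under quantile normalization (adjusted p = 0.0275). For KLF13 it was -0.21 (limma adjusted p = 0.111), which also turned after that scaling (0.07). The intervals of KLF2 and KLF11 reach 0.46 and 0.40 on the log2 scale, so they do not show that the lines respond alike.

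The lines started from different levels. In control cells, KLF5, KLF6, KLF7 and KLF13 were lower in H460 than in A549 by more than 2-fold. By the same rule over 13532 genes, no KLF gene was called higher in H460 and 4 were called lower, where 5.64% of all genes were higher and 8.78% lower. KLF5 was most apart, at a ratio of H460 to A549 of 0.112 (log2 difference -2.73, SE 0.112, limma adjusted p = 1.65e-07). KLF6 was at a ratio of 0.302 (-1.60, limma adjusted p = 1.63e-06) and KLF7 at 0.292 (-1.28, limma adjusted p = 9.63e-06), so that their order depends on the pseudocount. KLF13 was at 0.411 (-1.17, limma adjusted p = 5.35e-06).

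KLF3 (ratio 0.461, log2 difference -0.88) and KLF10 (0.542, -0.84) were also lower in control H460 at an adjusted p under 0.05 by limma, but by less than 1 on the log2 scale. KLF3 was past 1 at a pseudocount of 0.1 (-1.09) and with voom (-1.09 and -1.12). KLF2 (1.59, 0.58), KLF4 (1.77, 0.76) and KLF9 (2.0002, 0.33) were higher in control H460, where KLF9 lost its adjusted p without control H460 library 1 (0.0519) or 3 (0.0517), and its log2 difference was 0.81 at a pseudocount of 0.1 and 0.96 to 0.99 with limma voom. KLF11 overlapped between the lines, with a log2 difference of -0.07 (95% interval -0.31 to 0.17, limma adjusted p = 0.581) that turned to 0.09 under quantile normalization.

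After ISP-I the order of the lines was another one for some members and the same for others. KLF10 and KLF4 were called higher in H460 and KLF13 lower, so 2 of 10 were higher and 1 lower, where 7.67% of the 13936 genes tested were higher and 16% lower. KLF10 was at 4.19 times its A549 level (log2 difference 2.02, SE 0.173, limma adjusted p = 3.11e-05) and KLF4 at 3.03 times (1.53, limma adjusted p = 1.04e-05). KLF13 stayed lower in H460, at a ratio of 0.352 (-1.39, limma adjusted p = 5.4e-06). KLF6 (ratio 1.43, log2 difference 0.51, limma adjusted p = 0.00163) and KLF3 (1.40, 0.40, limma adjusted p = 0.0138) were lower in H460 than in A549 among the controls and higher among the treated libraries. For KLF3 the adjusted p was 0.0501 without A549 ISP-I library 1. After median-of-ratios scaling the log2 differences were 0.84 for KLF6 and 0.68 for KLF3.

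For KLF5 and KLF7, the gap between the control lines was no longer past the test after treatment. KLF5 had a ratio of 1.198 and a log2 difference of 0.24 (95% interval -0.02 to 0.50, limma adjusted p = 0.0883). This difference passed after median-of-ratios scaling (0.56, adjusted p = 0.00231) and without H460 ISP-I library 3 (0.30, adjusted p = 0.0221). KLF7 had a ratio of 0.929 and a log2 difference of -0.10 (95% interval -0.41 to 0.21, limma adjusted p = 0.51), which was 0.17 after median-of-ratios scaling and -0.24 (adjusted p = 0.035) without H460 ISP-I library 2. KLF11 was at -0.03 (95% interval -0.33 to 0.27, limma adjusted p = 0.838), and at 0.25 after median-of-ratios scaling. KLF2 (0.58, limma adjusted p = 0.0177) and KLF9 (0.46, limma adjusted p = 0.00211) were higher in H460, but KLF2 no longer passed the adjusted p without A549 ISP-I library 2 (adjusted p = 0.0669), A549 ISP-I library 3 (0.0621) or H460 ISP-I library 1 (0.0707). The difference of KLF9, whose ratio of means was 2.49, was past 1 at a pseudocount of 0.1 (1.11) and with limma voom (1.66 and 1.32). These comparisons use the same libraries as the changes within each line and are not separate evidence.

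**Figure D3:**
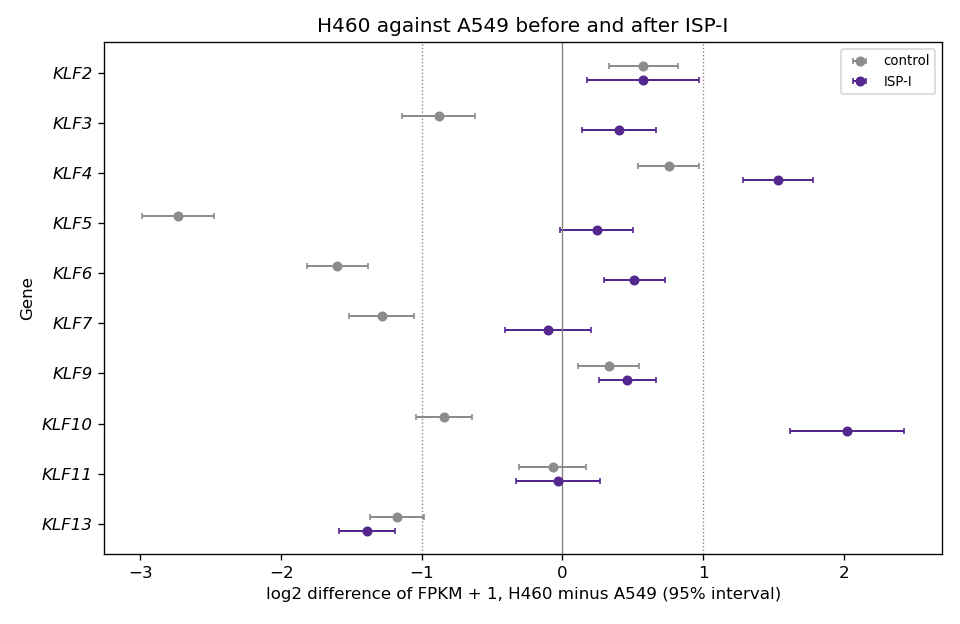
Log2 difference of FPKM + 1 between H460 and A549 for each KLF gene, among control libraries (grey) and among ISP-I libraries (purple), with points at the limma estimate and bars for the 95% interval (3 against 3 libraries). KLF5 moves from -2.73 to 0.24, KLF6 from -1.60 to 0.51 and KLF10 from -0.84 to 2.02, while KLF13 is at -1.17 and -1.39.

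FPKM is per length, so the members can also be ranked against each other, but only roughly. The length is 1 value per gene and may differ from that of the transcripts expressed, so close ranks and shares of a sum are uncertain. In control H460, KLF4 (15.6 ± 1.55 FPKM) and KLF10 (15.4 ± 0.901) were the most abundant and overlapped (SD, n = 3). KLF2, KLF6 and KLF13 came next, between 7.08 and 8.99 FPKM in every library, and each overlapped its neighbour. KLF3, KLF5 and KLF11 overlapped with each other at 2.08 to 2.92 FPKM, above KLF7 and KLF9. After ISP-I the 4 highest members, KLF10, KLF6, KLF4 and KLF5 in that order, no longer overlapped with their neighbours, whereas KLF13, KLF3, KLF11, KLF2 and KLF7 overlapped in a row at means of 7.26 to 4.66 FPKM.

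In control A549, KLF10 led at 28.4 ± 1.61 FPKM, followed by KLF6 and KLF5, which overlapped, and by KLF13 at 17.7 ± 1.10 FPKM (SD, n = 3). KLF3, KLF2 and KLF7 overlapped in a row at means of 5.52 to 4.94 FPKM, above KLF11 and KLF9. After ISP-I, KLF6 (66.5 ± 2.39) passed KLF10 (58.8 ± 1.16), and no neighbours in the order overlapped. KLF9 was last in all 4 groups.

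The summed level of the 10 genes was 61.7, 64.4 and 63.5 FPKM in the control H460 libraries and 449.4, 498.0 and 368.8 FPKM after ISP-I. In A549 the sum was 122.4, 121.0 and 115.3 FPKM in the controls and 202.7, 194.8 and 203.4 FPKM after ISP-I. The controls of H460 lay lowest and the treated H460 libraries highest, with no overlap of the 4 groups. KLF10 made up 24.4% of the sum in control H460 and 56.2% after ISP-I, against 23.8% and 29.4% in A549. The share of KLF6 went from 11.6% to 21.7% in H460 and from 20.4% to 33.2% in A549. The share of KLF4 went from 24.7% to 9.14% in H460, although its own level rose.

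**Figure D4:**
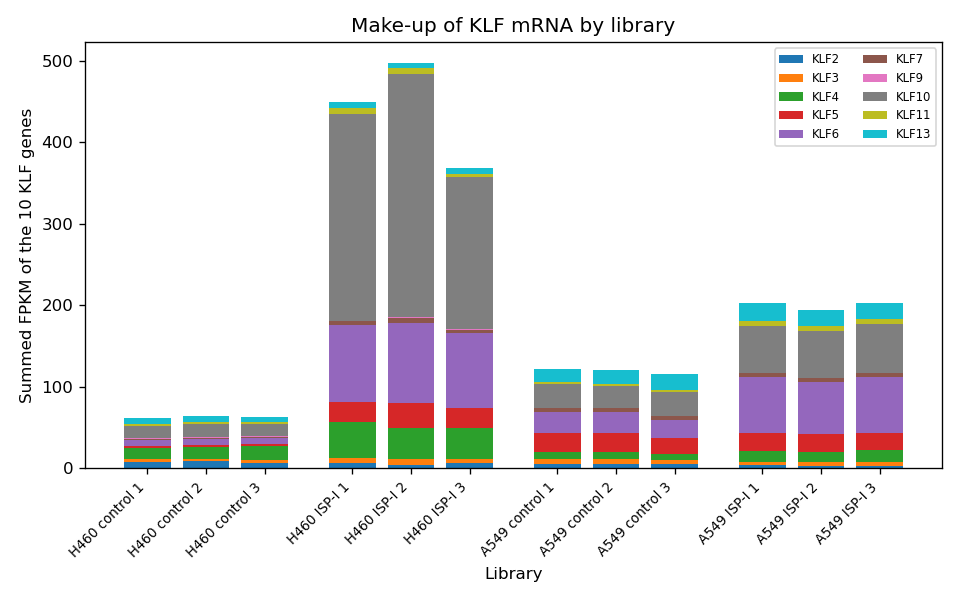
Summed FPKM of the 10 KLF genes in each library, stacked by gene, for the 12 libraries in their 4 groups. The sum is 368.8 to 498.0 FPKM in ISP-I-treated H460, most of it KLF10, and 194.8 to 203.4 FPKM in ISP-I-treated A549, where KLF6 is the largest part.

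Of 17 other genes of the KLF and SP families, 11 could be tested in H460, and 3 were called higher and none lower, with a median log2 change of 0.38 and with 6 higher and 1 lower at any fold, where 10.5% of all genes were called higher and 15.2% lower, 27.6% and 41.5% at any fold, with a median of -0.15. KLF16, a repressor of the same family, went from 15.8 ± 1.86 to 34.6 ± 6.09 FPKM (SD, n = 3, log2 change 1.07, limma adjusted p = 0.000371). SP2 went from 7.53 ± 0.478 to 21.1 ± 3.22 FPKM (1.36, limma adjusted p = 3.59e-05) and SP3 from 4.10 ± 0.859 to 9.34 ± 2.42 FPKM (1.01, limma adjusted p = 0.00189), both being zinc finger factors of the SP family. In A549, where 4.2% of all genes were called higher and 3.51% lower, 9 were tested and none was called by limma. At an adjusted p under 0.05 at any fold 2 were higher and 3 lower, against 30.5% and 27% of all genes, and 5 had an unadjusted p under 0.05. The log2 change of SP2 was higher by 1.64 in H460 than in A549 (limma adjusted p = 3.49e-06), that of SP6 by 1.12 (limma adjusted p = 0.00017) and that of SP3 by 1.03 (limma adjusted p = 0.00953). In A549 SP2 fell (-0.27, limma adjusted p = 0.0174), and SP3 did not pass (-0.02, limma adjusted p = 0.931). SP6 was called in neither line, at 0.87 in H460 (limma adjusted p = 6.88e-05) and -0.25 in A549 (limma adjusted p = 0.137).

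KLF15, a metabolic regulator induced by glucocorticoids, was chosen for mention after its values were seen. It was at 0.0871 ± 0.0474 FPKM in control H460 and 1.0003 ± 0.162 after ISP-I (SD, n = 3), and at 0.0401 ± 0.0501 and 0.831 ± 0.130 FPKM in A549, low in all groups. The log2 change was 0.88 in H460 (limma adjusted p = 2.21e-05) and 0.81 in A549 (limma adjusted p = 3.95e-05), on a scale that understates such low values.

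Among 9 cofactors through which KLFs act, 1 was called higher and 2 lower in H460, where 10.5% and 15.2% of all genes were. At any fold 2 were higher and 5 lower in H460, against 27.6% and 41.5% of all genes. HDAC1, a deacetylase of SIN3 complexes, fell from 26.0 ± 1.81 to 6.72 ± 0.181 FPKM in H460 (SD, n = 3, log2 change -1.80, limma adjusted p = 2.28e-06). HDAC2, also among the 9 and named only for comparison, did not pass in H460 (-0.19, limma adjusted p = 0.256) or in A549 (-0.01, limma adjusted p = 0.92). HDAC1 also fell in A549, from 30.8 ± 0.530 to 14.9 ± 0.352 FPKM (-0.998, limma adjusted p = 5.8e-06), just short of the 2-fold call. CTBP1, a corepressor recruited by KLF3, fell from 10.3 ± 1.40 to 2.99 ± 0.165 FPKM (-1.498, limma adjusted p = 1.28e-05), by 1.07 more on the log2 scale than in A549 (interaction, limma adjusted p = 5.35e-05). FHL3, a LIM protein that binds KLF3, rose from 2.26 ± 0.524 to 7.94 ± 1.32 FPKM (1.46, limma adjusted p = 7.7e-05). It rose in A549 too, by 0.895 on the log2 scale (limma adjusted p = 0.00084), short of the call. In A549, SIN3A, the corepressor bound by KLF9, KLF10, KLF11 and KLF13, was the 1 cofactor called, and it fell from 10.7 ± 0.766 to 3.92 ± 0.0714 FPKM (-1.25, limma adjusted p = 6.2e-06). SIN3A also fell in H460, from 6.24 ± 0.299 to 3.35 ± 0.639 FPKM (-0.74, limma adjusted p = 0.00123), short of the 2-fold call. Of all genes tested in A549, 4.2% were called higher and 3.51% lower. At any fold 2 were higher and 3 lower in A549, against 30.5% and 27% of all genes. The median log2 change of the 9 was -0.58 in H460 and -0.05 in A549, against -0.15 and 0.02 over all genes.

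Of 13 genes known to act upstream of KLF genes, the MEK5-ERK5-MEF2 and SRF pathways, 1 was called higher and 1 lower in H460, where 10.5% and 15.2% of all genes were. MEF2A, a factor that activates KLF2 and KLF4 in other cells, rose from 2.20 ± 0.364 to 6.66 ± 2.31 FPKM (SD, n = 3, log2 change 1.22, limma adjusted p = 0.000781). MAP2K5, the kinase MEK5, fell from 3.25 ± 0.238 to 0.849 ± 0.214 FPKM (-1.20, limma adjusted p = 3.07e-05). At any fold 6 were higher and 5 lower in H460, against 27.6% and 41.5% of all genes. In A549, 12 were tested and none was called at 2-fold by limma, where 4.2% of all genes were called higher and 3.51% lower. At any fold 3 were higher and 5 lower in A549, against 30.5% and 27% of all genes, and 9 had an unadjusted p under 0.05. The log2 change of MRTFA, a coactivator of SRF, was higher by 1.02 in H460 than in A549 (limma adjusted p = 4.77e-05). It was 0.55 in H460 (limma adjusted p = 0.00448) and -0.47 in A549 (limma adjusted p = 0.000504), so the signs were opposite.

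Of 11 genes of KLF protein turnover, 2 ubiquitin ligases were called higher in H460 and none lower, where 10.5% and 15.2% of all genes were. ITCH, which ubiquitylates KLF10 in T cells, rose from 5.77 ± 0.840 to 17.0 ± 4.23 FPKM (SD, n = 3, log2 change 1.39, limma adjusted p = 0.000233). SMURF1 rose from 9.19 ± 0.418 to 26.9 ± 2.29 FPKM (1.45, limma adjusted p = 8.61e-06), and its change exceeded that in A549 by 1.36 (limma adjusted p = 1.18e-06). At any fold 6 were higher and 3 lower in H460, against 27.6% and 41.5% of all genes. At any fold 4 were higher and 2 lower in A549, against 30.5% and 27% of all genes, and 8 had an unadjusted p under 0.05. None was called at 2-fold by limma in A549, where 4.2% of all genes were called higher and 3.51% lower.

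Among 20 genes reported in other cells as KLF targets, 19 were tested in each line. In H460 5 were called higher and 3 lower. The counts were the same in A549, but not all of the genes were. The shares of all genes called were 10.5% upward and 15.2% downward in H460, against 4.2% and 3.51% in A549. At any fold 7 were higher and 7 lower in H460, against 27.6% and 41.5% of all genes. In A549 6 were higher and 9 lower at any fold, against 30.5% and 27% of all genes. The median log2 change was 0.04 in H460 and -0.08 in A549, against -0.15 and 0.02 over all genes. ATF3, a stress response factor, rose from 1.04 ± 0.230 to 24.8 ± 3.77 FPKM in H460 (SD, n = 3, log2 change 3.65, limma adjusted p = 4.03e-07) and from 1.34 ± 0.119 to 18.8 ± 0.264 FPKM in A549 (3.08, limma adjusted p = 1.09e-07). CDKN1A, the cell cycle inhibitor p21, rose from 7.89 ± 0.690 to 63.1 ± 11.4 FPKM in H460 (2.84, limma adjusted p = 1.3e-06) and from 50.3 ± 5.71 to 213.5 ± 8.38 FPKM in A549 (2.07, limma adjusted p = 1.32e-06). NOS3, the endothelial nitric oxide synthase, was at 0.109 ± 0.0701 FPKM in control H460 and 5.33 ± 0.651 after ISP-I (2.51, limma adjusted p = 6.77e-07), and at 0.0419 ± 0.0629 and 3.37 ± 0.143 FPKM in A549 (2.07, limma adjusted p = 6.19e-07).

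ODC1, ornithine decarboxylase, rose in A549 from 106.8 ± 3.83 to 255.2 ± 7.001 FPKM (SD, n = 3, log2 change 1.25, limma adjusted p = 3.37e-06). It also rose in H460, from 301.7 ± 32.4 to 636.1 ± 80.2 FPKM (1.07, limma adjusted p = 0.000578). By the interaction, the log2 change of EDN1 was higher in H460 than in A549 by 1.83 (limma adjusted p = 1.21e-05), and the differences of ENG (-2.52, limma adjusted p = 1.27e-07) and LGALS3 (-1.07, limma adjusted p = 0.00185) were negative. EDN1 fell in A549, from 54.1 to 20.8 FPKM (-1.34, limma adjusted p = 1.1e-05), and rose from 1.24 to 2.13 FPKM in H460 (0.49, limma adjusted p = 0.0232). LGALS3 rose in A549 (1.41, limma adjusted p = 5.79e-06) and did not pass in H460 (0.34, limma adjusted p = 0.145). ENG, a TGFβ co-receptor, was at 20.48 ± 1.95 FPKM in control H460 and 2.81 ± 0.476 after ISP-I, against 0.473 ± 0.108 and 0.495 ± 0.0939 FPKM in A549.

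The genes whose pattern was most like that of the leading KLF gene of each line were sought over the 12 libraries among the 6650 genes averaging 5 FPKM or more. The 12 points share their 4 groups, so these correlations describe a common pattern over groups. For KLF10, the member that changed most in H460, PHLDA1 came first with Pearson's r = 0.9946 of log2(FPKM + 1), at mean levels of 7.83 and 87.6 FPKM in control and treated H460 and 14.1 and 24.8 FPKM in A549. ARL14 (r = 0.9927), MEX3C (0.9926), PPP2R2A (0.9916) and NFKB2 (0.9892) followed. NFKB2, an NF-kB subunit, had mean levels of 17.1 and 162.2 FPKM in control and treated H460, and of 32.0 and 59.0 FPKM in A549. For KLF6, the member that changed most in A549, HMGCS1 was first (r = 0.9946), an enzyme of cholesterol synthesis with means of 5.41 and 47.4 FPKM in H460 and 16.0 and 34.6 FPKM in A549. IRAK2 (0.9945), PLK2 (0.9935) and CHKA (0.9913) followed.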

How the data were processed

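RNA of 12 libraries was sequenced as paired-end reads. The authors used FastQC to filter the reads, HISAT2 to align them to hg38 and HTSeq (version 0.9.1 in the submitters' processing notes) to count reads on each gene, and deposited FPKM per gene and library; the deposited table also holds gene length in bases, another quantity that is no measurement of a sample. The annotation version is not given in the sources used here. Of the deposited table's lines, 4 were pieces of another line and were left out, and 1924 of 19973 genes had no reads in any library. The product of FPKM and length gave whole reads, within 0.1 read, for 100% of the values, and these recovered reads summed to between 14225849 and 17874422 in a library. Gene coordinates are those of the table. Of the genes, 19895 were found in GENCODE v44, 85.94% with identical start and end.

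Each comparison of 3 against 3 libraries, and the interaction of line and treatment in all 12, used limma 3.58.1 (R 4.3.3) with a mean-variance trend on log2(FPKM + 1), for the genes averaging 0.1 FPKM or more in the libraries fitted. All 10 KLF genes passed this filter in every comparison. p-values were adjusted by Benjamini-Hochberg over all genes tested, and a gene was called at an absolute log2 value over 1 and an adjusted p under 0.05. Scripts ran in Python 3.11.15 (pandas 2.3.3, numpy 2.4.6). The code of the fits was run on simulated counts with known changes. The simulation set the same spread in all groups, unlike the libraries, and its outcome is not given here, so it does not bear on the calls. Alternatives were a pseudocount of 0.1, no filter, a filter at a mean of 1 FPKM, a minimum of 10 reads in each of the libraries, median-of-ratios scaling, quantile normalization, limma voom on the recovered reads, limma treat against a fold of 2, all libraries in 1 fit, and leaving out each library.

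The KLF genes and the other gene lists, written from general knowledge, were chosen with earlier results of these data known. Named genes were all 10 KLF genes, of each other list the genes called (where over 4 were called, the 4 with the smallest p), and for the KLF gene with the largest absolute change in each line the 5 genes with the highest correlation to it. Library numbers are places within a group, since the columns give only line and treatment with a running number. Motifs were searched in RefSeq promoter windows on both strands. Protein sequences were not analysed here. Of the genes this rule names, 2 are not reported here.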

Additional observations from a re-analysis of the deposited data

Results flagged for a closer look

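The change with ISP-I differed between H460 and A549 for 6 KLF genes, by the interaction of line and treatment in the 12 libraries (limma with Benjamini-Hochberg adjustment, adjusted p under 0.05), and each was larger in H460. For 5 of them the difference was over 1 on the log2 scale, where 5.93% of all genes tested were called higher and 10.1% lower. The share of all genes that passed at any fold is not given here, so the count of 6 has no background. The difference of the log2 changes was 2.97 for KLF5, 2.86 for KLF10, 2.11 for KLF6, 1.28 for KLF3, 1.18 for KLF7 and 0.78 for KLF4. KLF3 was the 1 gene of these with opposite signs in the lines, at 1.07 in H460 and -0.21 in A549, the latter with an adjusted p of 0.0679.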

How the results depend on the processing

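With limma treat against a fold of 2, 3 KLF genes were called in H460, 1 in A549, 3 in the interaction and 2 between the control lines. At any fold, 6 were called in A549, where 30.5% of all genes were higher and 27% lower. Between the control lines 9 were called at any fold, and between the treated lines 7. The shares of all genes at any fold between the lines, and under limma treat, are not given here, so those counts have no background. Quantile normalization left 1 call in A549, and voom with median-of-ratios scaling gave 5 between the treated lines. The sign turned for KLF13 in H460 with median-of-ratios scaling (0.25), quantile normalization (0.14) and voom on median-of-ratios (0.29), and for KLF5 in A549 in that order (-0.0051, -0.0126 and -0.0054). In the interaction it turned for KLF2 (0.26, 0.22 and 0.36, 0.0365 at a pseudocount of 0.1, and 0.0399 with voom on library totals) and for KLF13 (0.0688 and, with voom, 0.0904). It turned for KLF11 between the control lines under quantile normalization (0.0889), and between the treated lines, in the same order of settings, for KLF7 (0.17, 0.24 and 0.21) and KLF11 (0.25, 0.26 and 0.30). The scaling by its construction moved the median of all genes by 0.16 in H460, 0.18 in the interaction and 0.19 between the treated lines. Leaving out single libraries turned signs within -0.0434 to 0.0215 (KLF13, H460), -0.0746 to 0.0242 (KLF9, A549), -0.0543 to 0.0452 (KLF5, A549), -0.0236 to 0.0631 (KLF7, A549), -0.1029 to 0.1861 (KLF2, interaction), -0.0428 to 0.1743 (KLF11, interaction) and -0.1128 to 0.1043 (KLF11, treated lines). Of 845 values of single KLF genes under an alternative, 751 kept their sign and their side of the adjusted p, 44 lost the adjusted p, 10 gained it and 40 changed sign. The other filters on log2(FPKM + 1), limma treat and the fit of all libraries leave the log2 value unchanged by construction, so no sign could change there. limma treat also tests against a fold of 2, so its adjusted p answers another question. The 751 therefore do not measure how stable the results are. No paired analysis was possible because the columns carry no replicate labels that the groups share. KLF9 is limited by its depth, at 22 to 89 reads per library.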
